A study of Mus musculus with 2 samples.

Results

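The genes described here encode interleukin-10 (IL-10), the chains of the IL-12 and IL-27 cytokine family, and receptor chains for these cytokines. They were taken by symbol from the deposited expression table, in which all 10 were found among 37451 genes. The set holds 6 cytokine chains (*Il10*, *Il12a*, *Il12b*, *Il23a*, *Il27* and *Ebi3*) and 4 receptor chains (*Il10ra*, *Il10rb*, *Il27ra* and *Il12rb1*). RNA was measured in bone marrow-derived macrophages (BMDMs), which are grown from mouse bone marrow with CSF-1, in 1 library per genotype. WT cells came from C57BL/6 littermates, and ΔM cells from C57BL/6 TTP fl/fl LysMCre mice, in which a Cre recombinase driven by the lysozyme M locus removes tristetraprolin (TTP, encoded by *Zfp36*) in myeloid cells. The mice were 7 to 9 weeks old, and both cultures received 100 μM 4-thiouridine for 16 h before 10 ng/ml LPS was added for 6 h, as the treatment protocol states. The sample titles carry a 7 after LPS that the labels do not explain. The first character of the name of the ΔM column is unreadable in the table, and the column was assigned by its remaining M, which occurs in no other sample title. Unstimulated cells were not analysed here, so that the values are levels after LPS and not inductions. The number of mice behind a library is not given in the sources used here. With 1 library per genotype, no difference between WT and ΔM given here has a replicate check or a p-value. The paper also compared WT and ΔM expression after 6 h of LPS in separate libraries with biological replicates, which were not used here.

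IL-10 is the main cytokine with which macrophages restrain their own inflammatory output, and it signals through a ligand-binding chain, IL-10Rα, and a shared chain, IL-10Rβ, to STAT3. Cytokines of the IL-12 family are dimers of a helical chain and a receptor-like chain: p35 (*Il12a*) joins p40 (*Il12b*) in IL-12, p19 (*Il23a*) joins p40 in IL-23, p28 (*Il27*) joins EBI3 in IL-27, and p35 joins EBI3 in IL-35. Many cytokine mRNAs carry AU-rich elements in the 3′ UTR, to which TTP binds and through which it recruits the deadenylation machinery that starts mRNA decay.

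The study is accompanied by lists of TTP binding sites, made by crosslinking TTP to RNA in WT BMDMs. The list for 6 h of LPS was used here, and the one for 3 h was not. The 6 h list holds sequences for 4 of the 10 genes. It has no site for the other 6 genes at this time. The study kept only sites above a minimum number of crosslinks, and *Il12a*, *Il23a*, *Il27ra* and *Il12rb1* were very low in both libraries. For these, a missing site does not show that TTP leaves the mRNA unbound. The list gives 7 sites for *Il10*, 4 for *Il10ra*, 4 for *Il12b* and 3 for *Il27*. Of these 18 sites, 12 matched the mm9 sequence of their gene at 1 place, and all 12 of them lay in the annotated 3′ UTR. The remaining 6, of 3 to 7 nt, matched their gene at several places. The pentamer ATTTA, the core of AU-rich elements, was contained in 12 of the 18 sites, and TATTTAT, the heptamer form that TTP prefers, in 7. Listed sites without the pentamer and sites that could not be placed are not shown. The 10 sites that hold the pentamer and could be placed are shown in sense orientation, 5′ to 3′. Pentamers are in capitals, with at most the last 30 nt of a site, as these are some of the stretches listed as bound by TTP.
Il10, chr1:132920952-132920981, plus strand: cgtttgtacctctctccgaaatATTTAtta
Il10, chr1:132920986-132921015, plus strand: tgatacctcagttcccattctATTTAttca
Il10, chr1:132921054-132921083, plus strand: attataattttacagtATTTAttattttta
Il10, chr1:132921116-132921128, plus strand: tttatagtATTTA
Il27, chr7:133732599-133732626, minus strand: tttatttcttggatATTTATTTAttttt
Il27, chr7:133732576-133732590, minus strand: gtttATTTAttgttt
Il10ra, chr9:45062210-45062231, minus strand: ggaacctttATTTATTTAtttg
Il10ra, chr9:45062196-45062205, minus strand: cttATTTAtt
Il12b, chr11:44226968-44226979, plus strand: ttgaaatATTTA
Il12b, chr11:44226994-44227004, plus strand: ttattaATTTA

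In the longest *Il27* and *Il10ra* sites, pentamers follow each other with a shared A, whereas each of the shown *Il10* and *Il12b* stretches holds 1 pentamer. The placed *Il10* sites began between 101 and 292 nt after the stop codon, and the *Il27* sites between 183 and 219 nt. Those of *Il10ra* began between 1382 and 1469 nt, near the end of a 3′ UTR of 1691 nt. Both placed sites of *Il12b* began at 230 and 256 nt.

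**Figure D1:**
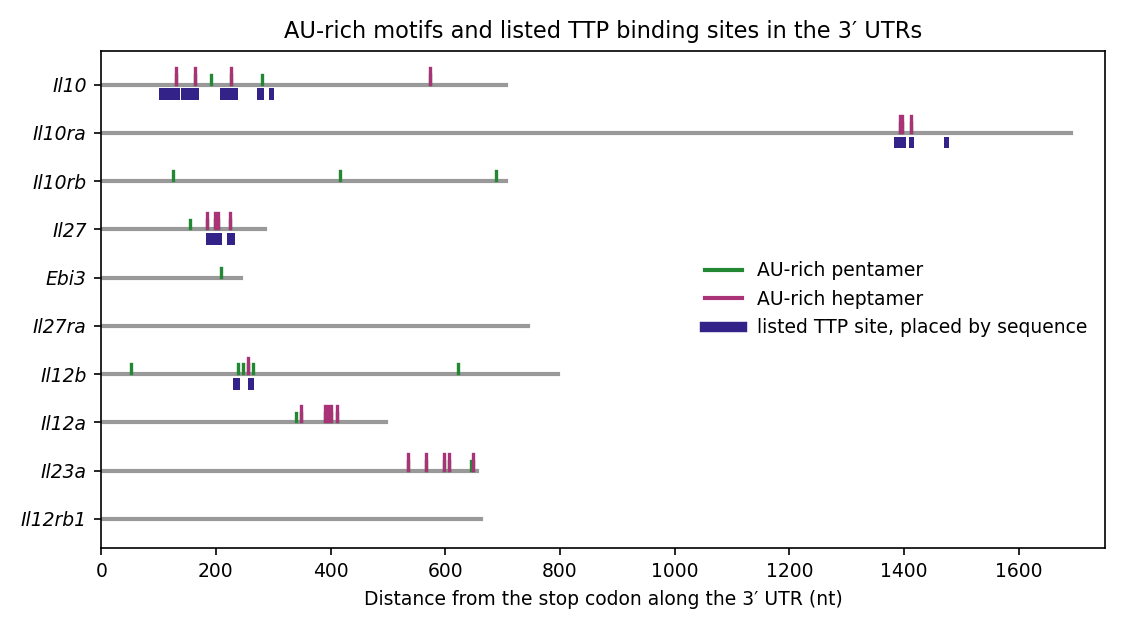
Annotated 3′ UTRs of the 10 genes, drawn to scale from the stop codon (horizontal axis, nt), with AU-rich pentamers (ATTTA, short ticks), AU-rich heptamers (TATTTAT, tall ticks) and the 12 listed TTP sites that could be placed (bars under the line). *Il12a* and *Il23a*, both very low in the 2 libraries, carry 5 heptamers each and no listed site. *Il27ra* and *Il12rb1* carry neither motif.

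The motifs were also counted over each whole 3′ UTR, on the sense strand only and with overlapping matches, where every heptamer contains a pentamer. *Il12a* held 6 pentamers and 5 heptamers in 497 nt, and *Il23a* 6 pentamers and 5 heptamers in 656 nt. *Il10* held 6 pentamers and 4 heptamers in 706 nt, and *Il27* 5 pentamers and 4 heptamers in only 285 nt. *Il10ra* held 3 heptamers and *Il12b* 1 heptamer among 6 pentamers. The heptamer was not found in *Il10rb*, *Ebi3*, *Il27ra* or *Il12rb1*, of which *Il10rb* held 3 pentamers and *Ebi3* 1 pentamer. Among 3′ UTRs of protein-coding genes with lengths within 25% of the *Il10* 3′ UTR, 17.5% held the heptamer at all and 0.529% held at least as many as *Il10*. The corresponding shares were 7.18% and 0.20% for *Il27*, 11.9% and 0.121% for *Il12a*, 16.6% and 0.214% for *Il23a*, and 35.1% and 3.15% for *Il10ra*. A motif match describes the letters of the 3′ UTR and does not by itself mark a bound site.

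The deposited values are FPKMs, that is, fragments scaled to the exon length of the gene and to the size of the library, and levels of different genes can be compared within a library because of the scaling to length. The steps between low FPKMs, which are whole multiples of 1 fragment, placed the depth near 35800000 fragments in WT and 31800000 in ΔM. Intervals given below are 95% Poisson or binomial intervals from these fragments, are approximate, and cover counting error only. *Zfp36* was at 65.3 FPKM in WT against 16.7 FPKM in ΔM, and was thus lower in the library labelled as TTP-deficient. All 6 macrophage markers were abundant, with a sum of 3693 FPKM in WT against 2532 FPKM in ΔM, a difference that lies mostly in *Lyz2*, the gene of the locus that carries Cre (2481 and 1356 FPKM). The markers of T and NK cells summed to 1.04 FPKM in WT and 0.77 FPKM in ΔM, nearly all of it *Cd4* (1.03 and 0.77 FPKM). *Cd3e*, *Cd3g* and *Ncr1* were listed at 0 in both. The markers of dendritic cells, another source of IL-12 family cytokines, summed to 0.43 and 0.30 FPKM. B cell markers summed to 0.00 and 0.08 FPKM, and fibroblast markers to 0.55 and 0.29 FPKM. Of the neutrophil markers, *S100a8*, which macrophages also express, was at 50.7 FPKM in WT against 100.02 FPKM in ΔM, while *Ly6g*, *Elane* and *S100a9* were listed at 0. In bulk RNA, fewer expressing cells and less RNA per cell cannot be told apart.

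Of the 10 genes, 6 had a mean of at least 1 FPKM over both libraries and 4 did not. Among the 6, *Il10* and *Il27* were at least 2-fold higher in ΔM and 0 were at least 2-fold lower, by the ratio of the FPKMs after adding 1 FPKM to each. Of all 10765 genes averaging at least 1 FPKM, 5.69% were at least 2-fold higher and 3.61% at least 2-fold lower in ΔM. The shares were lower among the 8047 protein-coding genes with a transcript over 300 nt, at 1.12% higher and 1.23% lower. In direction alone, 3 of the 6 genes were higher in ΔM (*Il10*, *Il27* and *Il10ra*) and 3 were lower (*Il10rb*, *Il12b* and *Ebi3*). The median log2 ratio of ΔM to WT was 0.13 over the 6 genes and 0.03 over all genes averaging at least 1 FPKM.

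**Figure D2:**
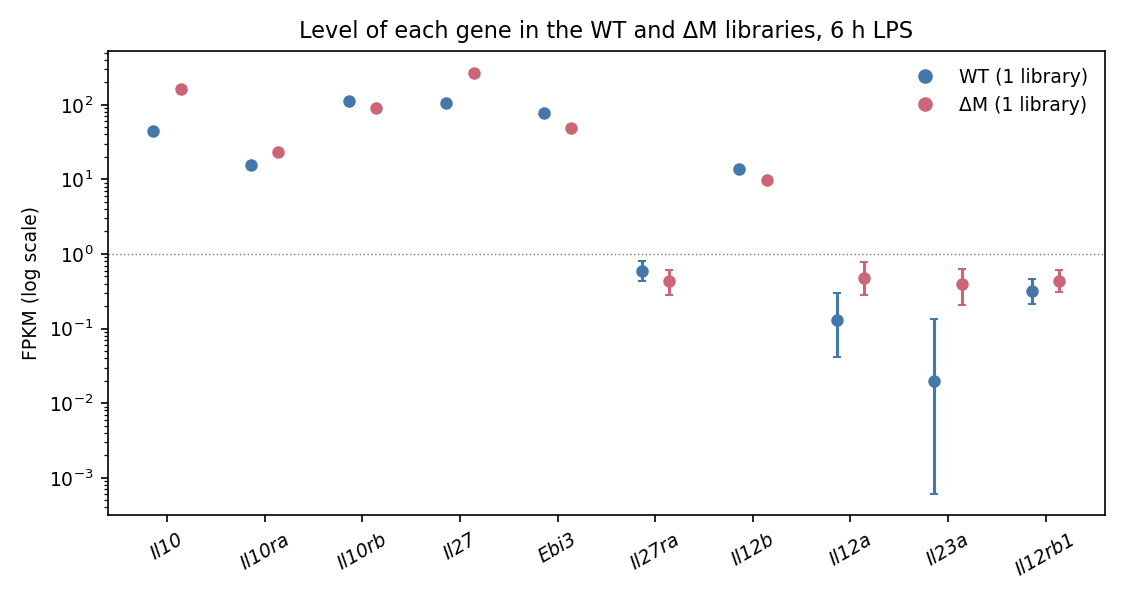
FPKM (log scale) of the 10 genes in the WT and ΔM libraries after 6 h of LPS; points are single libraries and bars are 95% counting intervals, hidden by the point where narrow. *Il10* and *Il27* are higher in ΔM, *Ebi3* is lower, and *Il27ra*, *Il12a*, *Il23a* and *Il12rb1* stay below the dotted line at 1 FPKM in both libraries.

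*Il10* (ENSMUSG00000016529, chromosome 1, 132916422 to 132921551, plus strand, mm9) encodes the IL-10 cytokine itself. It reached 45.08 FPKM in WT, where counting error spans 43.0 to 47.2 FPKM, and 161 FPKM in ΔM, with an interval from 157 to 166 FPKM. The level in ΔM was 3.58 times that in WT, with an interval from 3.40 to 3.78. The log2 ratio after adding 1 FPKM was 1.82, the 12th largest of the 8047 protein-coding genes. In WT *Il10* stood below *Il10rb*, *Il27* and *Ebi3*, and in ΔM only below *Il27*.

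The genes around *Il10* did not differ 2-fold. *Mapkapk2*, which encodes the kinase MK2 that phosphorylates TTP, lies 28730 nt from *Il10* and was at 208 FPKM in WT against 149 FPKM in ΔM. *Il19*, another IL-10 family cytokine in the same cluster, was at 10.4 FPKM in WT against 12.8 FPKM in ΔM. These were the only protein-coding genes within 100 kb of *Il10* with a mean of at least 1 FPKM.

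The receptor of IL-10 was present in both libraries, with unequal chains. *Il10ra* (ENSMUSG00000032089, chromosome 9, 45061922 to 45077232, minus strand), the ligand-binding chain, was at 15.6 FPKM in WT (14.9 to 16.3) and at 23.4 FPKM in ΔM (22.5 to 24.3). Its level in ΔM was 1.5 times that in WT, with an interval from 1.41 to 1.59, and the log2 ratio was 0.56. *Il10rb* (ENSMUSG00000022969, chromosome 16, 91406409 to 91426074, plus strand), the chain shared with other cytokine receptors, was at 111 FPKM in WT (109 to 114) and at 90.7 FPKM in ΔM (88.1 to 93.3). Thus *Il10ra* and *Il10rb* differed in opposite directions, and the ratio of *Il10rb* to *Il10ra* was 7.14 in WT (6.78 to 7.53) and 3.88 in ΔM (3.69 to 4.07). Annotated exons of *Il10rb* share 569 nt with *Ifnar2*, an interferon receptor gene on the same strand at 108 FPKM in WT against 92.9 FPKM in ΔM, and fragments from the shared part cannot be told apart.

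**Figure D3:**
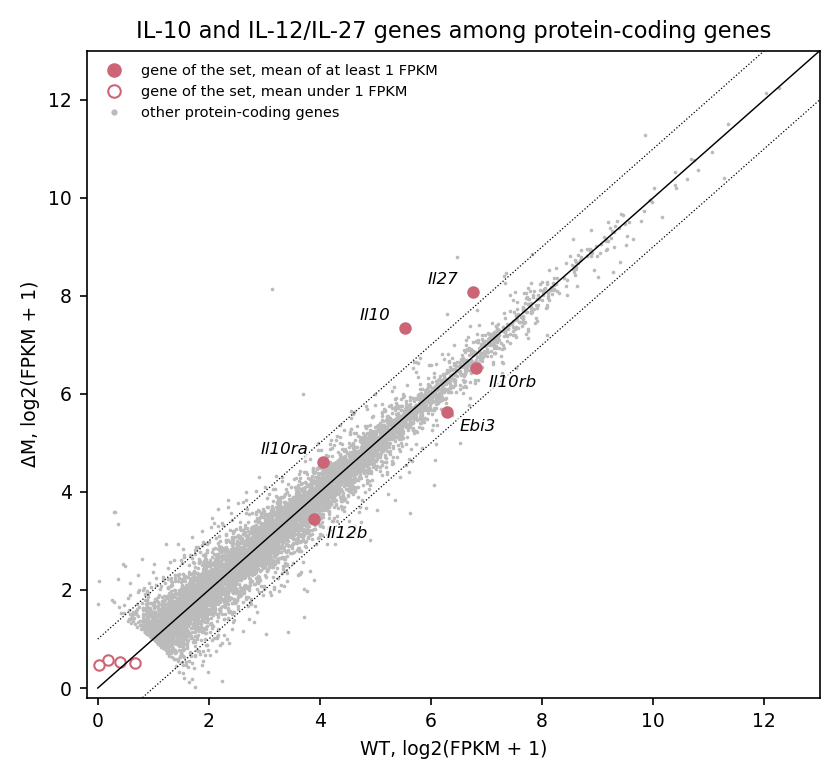
Level of each protein-coding gene in WT (horizontal axis) and ΔM (vertical axis) as log2(FPKM + 1), with the 10 genes in color, filled where the mean is at least 1 FPKM; the solid line marks equal levels and the dotted lines a 2-fold difference. *Il10* and *Il27* lie above the upper dotted line, and *Ebi3* and *Il12b* lie between the solid line and the lower one.

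The chains of IL-27 differed in opposite directions between the libraries. *Il27* (ENSMUSG00000044701, chromosome 7, 133732524 to 133738455, minus strand) encodes the helical p28 chain and was at 107 FPKM in WT (103 to 110) and at 270 FPKM in ΔM (263 to 276). The level in ΔM was 2.53 times that in WT, with an interval from 2.43 to 2.64, and the log2 ratio of 1.33 was the 30th largest among protein-coding genes. *Ebi3* (ENSMUSG00000003206, chromosome 17, 56092046 to 56096444, plus strand) encodes the receptor-like partner and was at 76.95 FPKM in WT (74.1 to 79.9) and at 48.5 FPKM in ΔM (46.1 to 51.0). The level in WT was 1.59 times that in ΔM, with an interval from 1.49 to 1.69. The log2 ratio of *Ebi3* was -0.66, and 3.91% of protein-coding genes had a lower one.

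The balance of the IL-27 chains was not the same in the libraries. In WT there was 1.39 times as much *Il27* as *Ebi3* (1.32 to 1.46), and in ΔM 5.56 times as much (5.26 to 5.88). The ratio of *Ebi3* to *Il27* therefore differed 4.02-fold between WT and ΔM.

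Neither gene is free of overlap with a gene on the other strand, and the sources used here do not say whether strand was used in counting. *Il27* shares 103 nt of exon with *Apobr*, which was at 24.3 FPKM in WT against 16.1 FPKM in ΔM and thus differed in the opposite direction. *Ebi3* shares 270 nt with the noncoding gene *Gm16712*, which was at 2.24 and 1.22 FPKM. The 6 protein-coding genes within 100 kb of *Il27* with a mean of at least 1 FPKM, *Apobr* included, had log2 ratios from -0.57 to 0.12, and the 3 such neighbors of *Ebi3* from -0.47 to -0.13.

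*Il12b* (ENSMUSG00000004296, chromosome 11, 44213565 to 44227535, plus strand), which encodes the p40 chain common to IL-12 and IL-23, was at 13.8 FPKM in WT (12.9 to 14.8) and at 9.93 FPKM in ΔM (9.11 to 10.8). The level in WT was 1.39 times that in ΔM, with an interval from 1.25 to 1.55, and *Il12b* has 4 listed TTP sites, 2 of them placed in its 3′ UTR. It was the only gene with a listed site that was lower in ΔM. The 3 others, *Il10*, *Il27* and *Il10ra*, were higher, and *Il10rb* and *Ebi3*, the genes without a listed site that reached 1 FPKM, were lower. Of the 7926 protein-coding genes that average at least 1 FPKM and have an annotated 3′ UTR, 49.5% were higher in ΔM. Whether genes with a listed site differ from other genes was not tested. The paper reports that most mRNAs bound by TTP in the 3′ UTR were stable. It also names *Il10* among the TTP targets known from earlier work in macrophages. With WT and ΔM cells in which transcription was stopped, it found a stronger destabilization of *Il10* mRNA after 6 h of LPS than after 3 h.

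The helical partners of p40 were at the limit of detection in WT. *Il12a* (ENSMUSG00000027776, chromosome 3, 68494566 to 68502469, plus strand), which encodes p35, was at 0.13 FPKM in WT against 0.48 FPKM in ΔM, about 5 and 17 fragments. The ratio of ΔM to WT was 3.69, with a counting interval from 1.36 to 13.3, and the log2 ratio after adding 1 FPKM was 0.39. *Il23a* (ENSMUSG00000025383, chromosome 10, 127733196 to 127735140, minus strand), which encodes p19, was at 0.02 FPKM in WT against 0.39 FPKM in ΔM, about 1 and 14 fragments. The ratio of 19.5 rests on 1 fragment in WT and has a counting interval from 2.40 to 667, and the log2 ratio after adding 1 FPKM was 0.45. Both intervals lie above 1, at levels at which a few fragments decide the size of the difference. The 1 protein-coding gene within 100 kb of *Il12a* averaging at least 1 FPKM, *Schip1*, was at 1.91 FPKM in WT against 0.38 FPKM in ΔM. Of 6 such neighbors of *Il23a*, 1 differed 2-fold, *Gls2*, at 2.13 FPKM in WT against 0.09 FPKM in ΔM.

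Within each library p40 mRNA was in large excess over both partners. The ratio of *Il12b* to *Il12a* was 106 in WT (46.3 to 335.0) and 20.7 in ΔM (12.6 to 35.2). The ratio of *Il12b* to *Il23a* in ΔM was 25.5 (15.5 to 48.4), and in WT its interval started at 103. *Ebi3* likewise exceeded *Il12a*, the other chain of IL-35, by a ratio of 592 in WT (258 to 1860) and 101 in ΔM (61.8 to 171). Among the helical chains *Il12a*, *Il23a* and *Il27*, only *Il27* was above the level of its receptor-like partner.

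**Figure D4:**
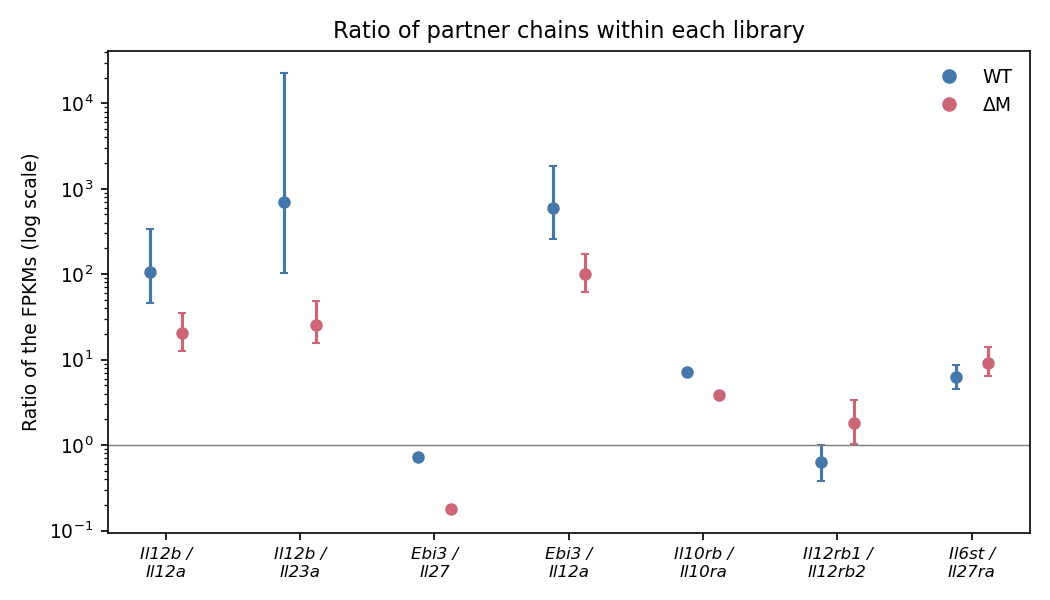
Ratio of the FPKMs of partner chains within the WT and ΔM libraries (log scale), with 95% counting intervals. The ratios of *Il12b* and *Ebi3* to their helical partners and of *Il10rb* to *Il10ra* are lower in ΔM than in WT, and *Ebi3* to *Il27* is the pair below 1 in both libraries.

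The receptor chains for IL-27 and IL-12 were low in both libraries. *Il27ra* (ENSMUSG00000005465, chromosome 8, 86554186 to 86566488, minus strand), the specific chain of the IL-27 receptor, was at 0.59 FPKM in WT (0.43 to 0.79) and 0.43 FPKM in ΔM (0.28 to 0.61). *Il12rb1* (ENSMUSG00000000791, chromosome 8, 73332348 to 73345323, plus strand), which serves the receptors of both IL-12 and IL-23, was at 0.32 FPKM in WT (0.22 to 0.46) and 0.44 FPKM in ΔM (0.31 to 0.61). The intervals of their ratios of ΔM to WT, from 0.43 to 1.18 for *Il27ra* and from 0.83 to 2.33 for *Il12rb1*, include 1, so a difference was not detectable at this depth. The partner of IL-27Rα, gp130 (*Il6st*), was more abundant, at 3.65 FPKM in WT against 3.97 FPKM in ΔM. *Il12rb2*, the second chain of the IL-12 receptor, was at 0.51 and 0.24 FPKM, and *Il23r*, the specific chain of the IL-23 receptor, at 0.15 and 0.44 FPKM. The ratio of *Il6st* to *Il27ra* was 6.19 in WT (4.54 to 8.56) and 9.23 in ΔM (6.41 to 14.2), with overlapping intervals. That of *Il12rb1* to *Il12rb2* was 0.627 in WT (0.381 to 1.004) and 1.83 in ΔM (1.04 to 3.36), on 20 to 48 fragments per gene and library.

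Ordered by level, the genes ran in WT from *Il10rb* and *Il27*, whose counting intervals overlap, through *Ebi3*, *Il10*, *Il10ra* and *Il12b* to *Il27ra*, *Il12rb1*, *Il12a* and *Il23a*. In ΔM the order was *Il27*, *Il10*, *Il10rb*, *Ebi3*, *Il10ra* and *Il12b*, each apart from the next by its interval, followed by *Il12a*, *Il12rb1*, *Il27ra* and *Il23a*, whose intervals overlap from each to the next. In WT the lowest 4 overlapped from each to the next as well. The upper 6 and the lower 4 were the same genes in both libraries.

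The ratios of ΔM to WT were also set beside the number of heptamers in the 3′ UTR. The 5 genes with 3 or more heptamers (*Il10*, *Il10ra*, *Il12a*, *Il23a* and *Il27*) had ratios of the FPKMs as deposited from 1.5 to 19.5, and for all 5 the counting interval lay above 1. The 5 genes with fewer had ratios from 0.63 to 1.38, with the interval below 1 for 3 of them (*Il10rb*, *Il12b* and *Ebi3*) and around 1 for 2. After adding 1 FPKM, the log2 ratios ran from 0.39 to 1.82 in the former, lowest for *Il12a* (0.39) and *Il23a* (0.45), and from -0.66 to 0.13 in the latter. The limit of 3 was chosen after the values were seen, and the genes were chosen for their function, so this is a description of 10 genes. Over the protein-coding genes that average at least 1 FPKM and have an annotated 3′ UTR, without the genes of the set, 2.44% of the 246 with 3 or more heptamers and 1.03% of the 7674 with fewer were at least 2-fold higher in ΔM. In direction alone, 50.4% of the former and 49.4% of the latter were higher in ΔM. At least 1.5-fold higher were 8.94% and 4.55%. The median log2 ratio was 0.00442 in the former and -0.00258 in the latter, both close to 0. *Il12a* and *Il23a* lie below the minimum mean of this comparison, and a split by counting intervals is not given for its genes.

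**Figure D5:**
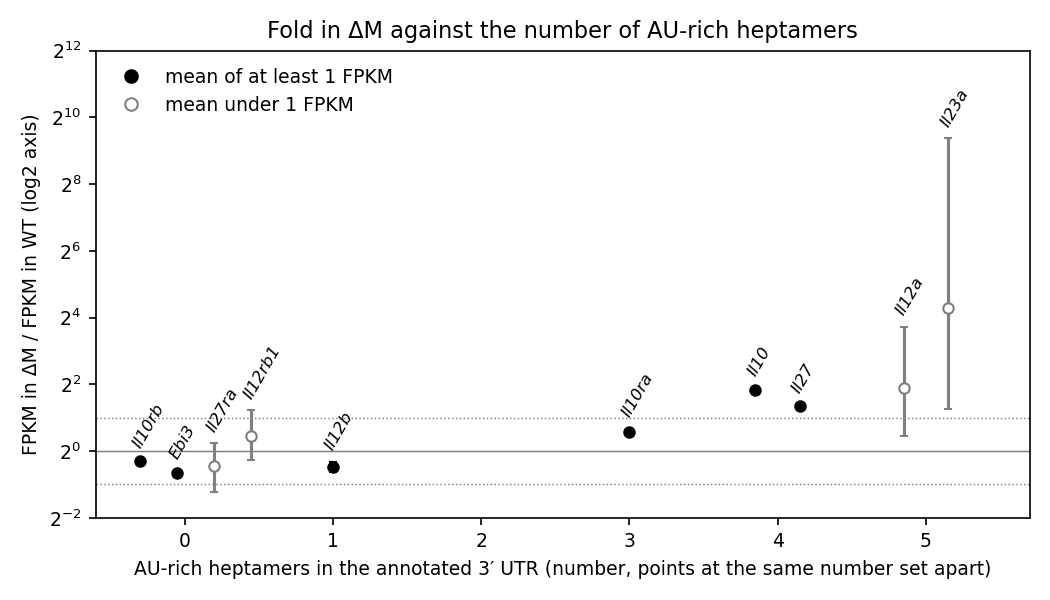
Ratio of the FPKM in ΔM to that in WT as deposited, with nothing added (log2 axis, bars are 95% counting intervals) against the number of TATTTAT heptamers in the annotated 3′ UTR; filled points have a mean of at least 1 FPKM. Genes with 3 or more heptamers lie at 1.5 or above, and those with fewer at 1.38 or below; dotted lines mark a 2-fold difference.

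Of 11 receptor partners, kinases, STATs and SOCS proteins, 8 reached a mean of 1 FPKM, and 0 of these 8 differed 2-fold. *Stat3*, the main transducer of IL-10, was at 376 FPKM in WT against 374 FPKM in ΔM, and *Jak1* at 39.6 and 39.9 FPKM. *Jak2* was at 50.1 FPKM in WT against 37.4 FPKM in ΔM. *Stat4*, which transduces IL-12, was at 0.32 and 0.28 FPKM. The median log2 ratio of the 8 was 0.05, with a range from -0.41 to 0.26.

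Genes that IL-10 is known to induce in macrophages were compared as well, since *Il10* was higher in ΔM. Of 9 such genes, all had a mean of at least 1 FPKM, 0 differed 2-fold, 8 were higher in ΔM and 1 was lower. Of the 8, *Bcl3* and *Il1rn* had counting intervals of the ratio that include 1 (0.996 to 1.09 and 0.993 to 1.02). The median log2 ratio of the 9 was 0.20, and 49.5% of the 7926 protein-coding genes that average at least 1 FPKM and have an annotated 3′ UTR were higher in ΔM. *Il4ra*, a chain of the IL-4 receptor, had the highest log2 ratio of the 9, at 470 FPKM in WT against 647 FPKM in ΔM. *Socs3*, the feedback inhibitor induced through STAT3, was at 114 and 137 FPKM, and *Il1rn*, the IL-1 receptor antagonist, at 980 and 987 FPKM. Among cytokines that IL-10 represses, 5 of 7 had a mean of at least 1 FPKM, with 2 higher and 3 lower in ΔM. *Tnf* was at 161 and 306 FPKM and *Il6* at 34.9 and 49.3 FPKM, whereas *Il1b* was at 875 and 741 FPKM and *Il1a* at 27.9 and 22.0 FPKM. *Il12b* was the third of those lower in ΔM. The paper lists TTP sites in the 3′ UTRs of *Hmox1* and *Il1rn*, and names *Tnf*, *Il6*, *Il1a* and *Il1b* among the targets of TTP. Effects of IL-10 and direct effects of the loss of TTP on such genes cannot be told apart here and were not tested.

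Of the other IL-10 family genes, 2 of 10 had a mean of at least 1 FPKM. *Il20rb*, a receptor chain for IL-19, IL-20 and IL-24, was at 2.33 FPKM in WT against 0.32 FPKM in ΔM, about 204 and 25 fragments, and was the 1 gene of this list that differed 2-fold. *Il20*, *Il22*, *Il20ra* and *Il22ra1* were listed at 0 in both libraries. Transcription factors that act at *Il10* or *Il12b* gave 8 of 9 genes averaging at least 1 FPKM, none of which differed 2-fold. *Maf*, an activator of *Il10* in macrophages, was at 15.1 FPKM in WT against 22.3 FPKM in ΔM. The paper lists *Maf* among the genes with TTP sites in the 3′ UTR, and whether it bears on *Il10* here was not tested. *Rel*, an activator of *Il12b*, was at 5.69 and 5.12 FPKM, and *Batf* at 21.7 and 14.1 FPKM. *Creb1*, another activator of *Il10*, was at 9.06 and 4.59 FPKM, the lowest log2 ratio of the list at -0.85. *Irf8*, also on this list of 10, was not found by its symbol among the measured genes and so has no value here.

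The protein-coding genes closest to *Il10* in both levels, by distance on the log2(FPKM + 1) scale over the 2 libraries, were *Pla2g7* at 54.6 and 105.8 FPKM, *S100a8*, and *C1qa* at 52.1 and 99.5 FPKM. None of the 3 differed as much as *Il10*, with log2 ratios from 0.92 to 0.97. Closest to *Il27* were *Ptgs2* at 112 and 208 FPKM, *Tnf*, and *Ndrg1* at 77.4 and 198 FPKM, of which *Ndrg1* had a log2 ratio of 1.34 and the other two 0.88 and 0.92. Likeness in 2 libraries is a weak measure, since 1 value per genotype is compared.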

How the data were processed

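Per the study's methods, the authors depleted rRNA, trimmed the reads (Cutadapt), aligned them to the mm9 genome (Segemehl), discarded those mapping to several places and ran Cufflinks over exons of Ensembl genes. Deposited were FPKMs with 2 decimals, 1 per gene and library, and 1 gene has no number in ΔM. Coordinates, transcript lengths and 3′ UTRs were taken from GENCODE M1 on NCBIM37 (mm9), where 37039 identifiers of the table, the 10 genes included, were found. Annotated 3′ UTRs are the longest of the protein-coding transcripts. TTP site sequences came from the 6 h list in the study's supplement and were placed by matching them within their gene.

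Depth was searched for with genes of 1 transcript from 250 to 600 nt, under which 93.7% of 966 low values in WT and 93.5% of 949 in ΔM were whole multiples of 1 fragment within 15%, where chance gives 30%. The search was tested on simulated data. Fragments per gene used the median length of its protein-coding transcripts. Ratio intervals are exact binomial intervals conditional on the sum of fragments, and ratios named log2 were computed after adding 1 FPKM, which understates the difference of low genes.

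The genes and the lists around them were chosen with earlier results of these data known. Named genes are those of the set and of the fixed lists, and the 3 protein-coding genes nearest to each gene of the set that differed 2-fold with a mean of at least 10 FPKM; overlapping and neighboring genes and list genes under 1 FPKM were added after values were seen. The pseudocount, minimum, fold, centring, scaling, chain ratios and 3′ UTR definition were varied. Python 3.11.15, numpy 2.4.6, pandas 2.3.3, scipy 1.17.1 and matplotlib 3.10.9 were used.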

Additional observations from a re-analysis of the deposited data

How the results depend on the processing

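No paired analysis was possible because each genotype has 1 library, and no library could be left out. Of 80 comparisons with an alternative, 60 stayed within the counting interval, or within 1.5 times for counts and shares, 20 moved and none changed direction. The log2 ratios of the 6 genes averaging at least 1 FPKM all stayed within it. The log2 ratio of *Il12a* was 1.33 with 0.1 FPKM added and 1.88 with none added, that of *Il23a* 2.03 and 4.29, and that of *Il12rb1* 0.36 and 0.46. Without a pseudocount *Il27ra* was at -0.46. These shifts follow from the pseudocount at low levels. At a fold of 1.5, 1 gene (*Ebi3*) was lower in ΔM, and without the minimum the median log2 ratio of the set was 0.26. With 1 FPKM added to both chains, *Il12b* to *Il12a* was 13.1 in WT and 7.39 in ΔM, *Il12b* to *Il23a* 14.5 and 7.86, *Ebi3* to *Il12a* 68.98 and 33.4, and *Il6st* to *Il27ra* 2.92 and 3.48. *Il10rb* to *Il10ra* in WT was 6.77. The background limited to protein-coding genes, chosen after seeing the data, is given with the counts. Depth limits *Il23a* most, with about 1 fragment in WT.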
